A study of Rattus norvegicus with 8 samples.

Results

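Glucose uptake and glycolysis were followed through 10 genes in RNA sequencing of OPCs, oligodendrocyte precursor cells, grown from the rat brain. OPCs divide and can mature into oligodendrocytes, which wrap axons in myelin. The genes were the glucose transporter Slc2a1, the hexokinases Hk1 and Hk2, the phosphofructokinase Pfkp, the aldolase Aldoa, Gapdh, Pgk1, Eno1, the pyruvate kinase Pkm and the lactate dehydrogenase subunit Ldha. They were taken by symbol from a table of 32883 genes, and all 10 had 1 row each. The table gives FPKM, sequenced fragments scaled by transcript length and library size, so levels can be set side by side between genes. Between libraries this holds less strictly, because more of an abundant gene lowers all others. The 8 libraries, 4 labelled male and 4 labelled female, came from the cortex of Sprague Dawley rats 1 to 2 days old. One culture protocol is given for all of them, with age and days in culture as ranges and not per library. Mixed glia were grown in DMEM with 20% fetal bovine serum, and the cells that did not stay attached were moved to Neurobasal medium with 2% B27, 2 mM glutamine, and PDGF and FGF at 10 ng/ml each, for 4 to 5 days. No source says whether libraries of a sex came from separate litters or dissections, so the p-values below measure the spread between these libraries, which may be technical.

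Glycolysis splits glucose into pyruvate and yields ATP and NADH. GLUT1, the product of Slc2a1, carries glucose into the cell, hexokinase traps it as glucose 6-phosphate, phosphofructokinase makes the committed step, and the enzymes from aldolase to pyruvate kinase carry the sugar phosphates to pyruvate. Lactate dehydrogenase then interconverts pyruvate and lactate, and cells of the oligodendrocyte lineage are known to release lactate that axons can use. Most of these steps have isozymes made by different genes, some of them typical of muscle, liver, brain or tumour cells.

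The cultures were checked against markers of the cells they could hold. All 7 OPC markers (among them Pdgfra, Olig2 and Sox10) were detected, with summed levels of 2000.5 to 2116 FPKM in male and 2362 to 2547 in female libraries. Microglial markers summed to 40.1 to 58.6 FPKM in male and 159 to 198 in female libraries, and 9 of the 10 with a row were called higher in female cultures. Markers of differentiating oligodendrocytes summed to 707 to 853 against 1030 to 1260. Astrocyte markers summed to 109 to 139 against 94.7 to 110, and neuronal markers to 330 to 368 against 310 to 435. Although the neuronal sums overlapped, 3 of the 8 neuronal markers (Gad1, Syt1 and Stmn2) were called higher in male cultures and 0 in female ones. On log2 values the male level was the higher in 4 of the 8. Tubb3, Rbfox3, Dcx and Map2 had the higher level in female cultures and were not called. Of the differentiating oligodendrocyte markers 4 of 8 were called higher in female cultures, and of the OPC markers 3 of 7. Over all tested genes 3.14% were called higher in male and 2.89% in female cultures. Fibroblast and vascular markers reached at most 0.212 FPKM in sum, with 4 of 7 at 0 in every library. The part of these cell types in the results below was not tested. In bulk samples, fewer cells of a type and less RNA per cell cannot be told apart. Read counts were not used here. Steps between low FPKM values gave depths relative to male 1 of 0.553 to 0.769 in the other male libraries and 0.303 to 0.981 in the female ones, and the 10 most abundant genes held 20.1 to 21.3% of all FPKM in male and 24.5 to 28.5% in female libraries.

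The 10 genes spanned a 276-fold range and kept nearly the same order in every library. Over the 8 libraries Gapdh averaged 911 ± 49.3 FPKM (SD, n = 8), the 91st highest of the 11263 genes tested. Eno1 followed at 405 ± 34.7 FPKM, and Aldoa at 324 ± 18.1. These are all enzymes of the pathway from aldolase on. Pgk1 averaged 233 ± 14.1 FPKM, Ldha 198 ± 20.8 and Pkm 185 ± 9.09. A drop of 2.90-fold separated these from Hk1, at 63.9 ± 3.25 FPKM. The remaining members were lower than Hk1. Pfkp averaged 20.3 ± 3.29 FPKM, Slc2a1 9.34 ± 1.25, and Hk2, the least abundant, 3.30 ± 0.424, rank 9334.

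Of the 9 neighbouring pairs in this order, 7 had ranges over the libraries that were apart. The ranges of Pgk1 and Ldha overlapped, although Pgk1 was above Ldha in 8 of 8 libraries. Ldha was above Pkm in 6 of 8 libraries, so the order of these genes was not fixed beyond their spread. Most of the more abundant members also varied little. The coefficient of variation over all 8 libraries was 4.91% for Pkm, 5.41% for Gapdh, 5.59% for Aldoa and 6.07% for Pgk1. For Eno1 it was 8.57%, near the median of 8.91% over the 953 tested genes of at least 100 FPKM. Hk1, below 100 FPKM, was at 5.09%, where the median over all tested genes was 15.8%. Ldha, at 10.5%, was the most variable member above 100 FPKM, and Pfkp, at 16.2%, the most variable of all 10.

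**Figure D1:**
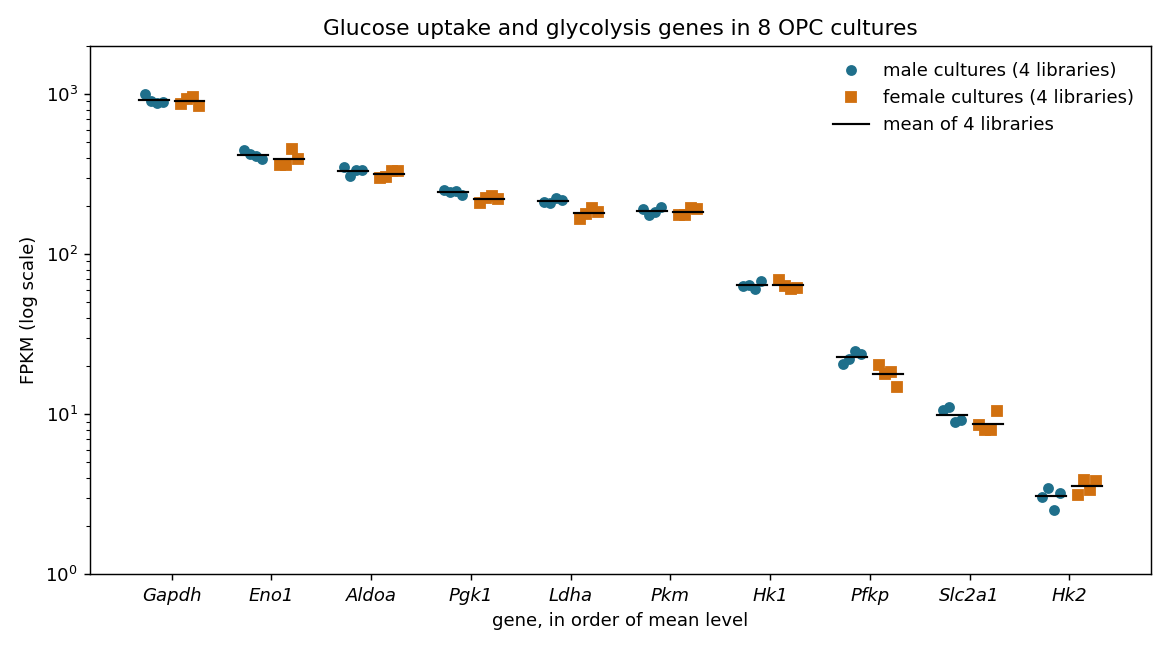
Level of each of the 10 genes in each library, in FPKM on a log axis, with 1 point per library, circles for male and squares for female, and a line at the mean of each sex. The points run from Gapdh (mean 911 FPKM) to Hk2 (mean 3.30 FPKM), and the sexes overlap at every gene but Ldha, Pfkp and Pgk1.

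Summing the isozymes of each reaction gave the profile of the whole pathway. The hexokinase genes summed to 67.4 ± 3.40 FPKM (SD, n = 8), and phosphofructokinase to 81.8 ± 4.37. Glucose 6-phosphate isomerase (Gpi), which lies between them, stood at 182 ± 10.8. The later sums were 420 ± 19.6 FPKM for aldolase, 911 ± 49.3 for glyceraldehyde-3-phosphate dehydrogenase and 233 ± 14.1 for phosphoglycerate kinase. Phosphoglycerate mutase, at 135 ± 11.5 FPKM, was the lowest step below aldolase. Enolase summed to 406 ± 34.8 FPKM, pyruvate kinase to 185 ± 9.09 and lactate dehydrogenase to 466 ± 23.2. These are levels of RNA per length, and enzyme amounts or flux were not measured. Triosephosphate isomerase is left out of this profile, because Tpi1, which every glycolytic cell uses, was listed at 0 in 7 libraries and at 0.203 FPKM in male 3. Eno2, a gene near Tpi1, was listed at 0 in all 8 libraries, so its part of the enolase sum is not known.

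**Figure D2:**
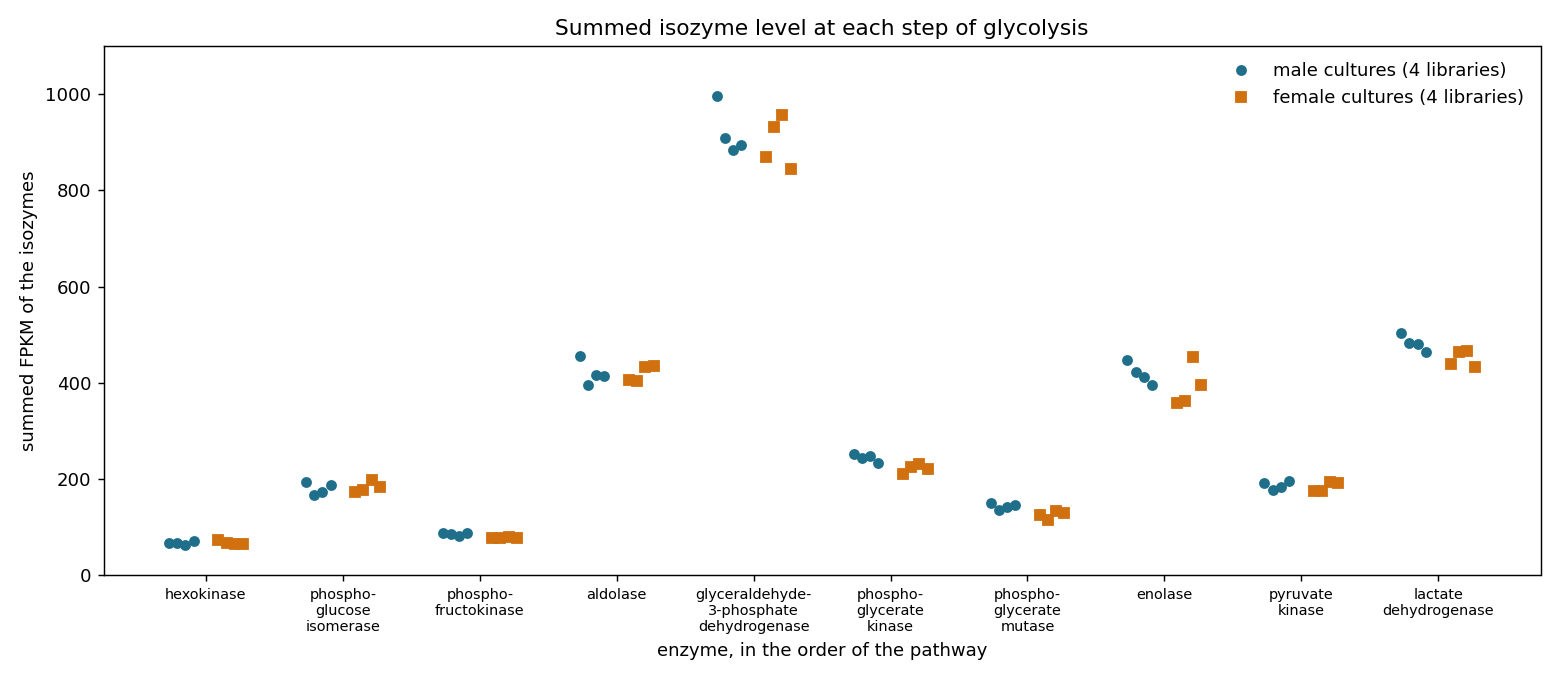
Summed FPKM of the isozymes of each reaction, in pathway order, with 1 point per library, circles for male and squares for female. The hexokinase and phosphofructokinase steps (means 67.4 and 81.8 FPKM) lie below all other steps shown, whose means run from 135 to 911 FPKM. Eno2 was listed at 0 in every library, so its part of the enolase sum is not known.

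The glucose transporter family held several transcripts besides Slc2a1, not all of them carriers of glucose into the cell. Of the summed FPKM of 11 members of the Slc2a family, Slc2a1 held 24.6 ± 3.28% (SD, n = 8), and Slc2a6, whose product sits in lysosomal membranes, held 32.8 ± 2.37%. Slc2a6 was above Slc2a1 in every library, by 1.08 to 1.59 times, at 10.1 to 14.6 FPKM. Slc2a8, an intracellular transporter, held 24.5 ± 3.05%, with 7.34 to 11.1 FPKM. Slc2a13, which carries myo-inositol with protons rather than glucose, held 11.8 ± 1.51%, and Slc2a12 held 5.03 ± 1.60%. The neuronal transporter Slc2a3, the liver transporter Slc2a2 and the insulin-responsive Slc2a4 were listed at 0 in all 8 libraries. Slc2a1 itself read 10.7, 11.1, 8.88 and 9.14 FPKM in male libraries 1 to 4 and 8.50, 7.95, 7.98 and 10.5 in female libraries 1 to 4. Its values overlapped between the sexes, with a log2 difference of 0.17 ± 0.12 (SE, male minus female, limma adjusted p = 0.474).

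Hexokinase was almost wholly Hk1, the form of brain. Its shares are over 4 of 5 listed genes, because Hkdc1 had no row. Hk1 made up 94.8 ± 0.695% of hexokinase FPKM, from 93.9 to 96.0% over the libraries, and Hk2, the inducible form of muscle and many tumours, 4.91 ± 0.644%. Hk1 exceeded Hk2 by 16.3 to 23.8 times. Hk1 read 63.6, 63.8, 60.3 and 68.3 FPKM in male libraries 1 to 4, and 69.0, 63.7, 60.5 and 61.8 in female libraries 1 to 4. Hk2 read 3.06, 3.46, 2.54 and 3.23 FPKM in the male and 3.14, 3.85, 3.35 and 3.80 in the female libraries. Both genes overlapped between the sexes. The log2 difference was 0.0060 ± 0.07 for Hk1 (95% interval -0.15 to 0.16, limma adjusted p = 0.973) and -0.16 ± 0.14 for Hk2 (-0.48 to 0.16, limma adjusted p = 0.582).

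Phosphofructokinase was mixed. The muscle form Pfkm held 55.8 ± 1.38% of its FPKM (SD, n = 8), the platelet form Pfkp, also common in brain, 24.7 ± 3.38% and the liver form Pfkl 19.5 ± 3.13%. Pfkp read 20.6, 22.0, 24.7 and 23.8 FPKM in male libraries 1 to 4 and 20.2, 17.8, 18.4 and 14.7 in female libraries 1 to 4. All 4 male values lay above all 4 female values, with the highest female library close to the lowest male one. The means were 22.8 ± 1.82 and 17.8 ± 2.28 FPKM, a ratio of 1.28. The log2 difference of 0.35 ± 0.11 (95% interval 0.11 to 0.58) had an unadjusted p of 0.00834 and missed the threshold of 0.05 after adjustment over all tested genes (limma adjusted p = 0.0893). Pfkm ran from 42.1 to 51.5 FPKM (log2 difference 0.13 ± 0.07, limma adjusted p = 0.320). Pfkl ran from 12.8 to 19.6 FPKM (-0.19 ± 0.11, limma adjusted p = 0.374). Pfkm exceeded Pfkl by 3.09 to 3.43 times in the male and by 2.18 to 2.98 times in the female libraries, a pair chosen after its values were seen. Summed phosphofructokinase lay between 81.5 and 87.8 FPKM in the male and between 77.1 and 80.5 in the female libraries, without overlap. Sums of phosphoglycerate kinase (lowest male 232.6, highest female 231.6) and phosphoglycerate mutase (135.5 and 134.5) did not overlap either. The sums were not tested between the sexes, and 14.0% of all tested genes, taken singly, had values that did not overlap.

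Aldolase was mostly Aldoa, the form found in nearly all tissues. Aldoa made up 77.3 ± 2.36% of aldolase FPKM and Aldoc, the brain form, 22.7 ± 2.36%. Aldoa read 350, 307, 333 and 336 FPKM in male libraries 1 to 4 and 301, 303, 333 and 331 in female libraries 1 to 4. The values overlapped, and the log2 difference was 0.06 ± 0.06 (limma adjusted p = 0.622). Aldoc ran from 77.9 to 105 FPKM, with a log2 difference of -0.21 ± 0.09 (unadjusted p = 0.0347, limma adjusted p = 0.196).

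The genes of the lower pathway had nearly 1 isozyme each. Gapdh, Pgk1 and Pkm held practically all of the FPKM of their families, and the testis form Pgk2 was listed at 0 in all libraries. Pkm gives the M1 and M2 pyruvate kinases by alternative splicing, and values per gene cannot tell these apart. Eno1 held 99.6 to 99.9% of enolase FPKM, but Eno2, the neuronal enolase, was listed at 0 in all 8 libraries beside Tpi1 and other genes at or near 0 at the same place in the genome, so its share of enolase is not known from these values. Gapdh read 996, 908, 883 and 895 FPKM in male libraries 1 to 4 and 870, 933, 956 and 844 in female libraries 1 to 4 (log2 difference 0.03 ± 0.06, 95% interval -0.11 to 0.17, limma adjusted p = 0.830). Gapdh has many processed copies in the rat genome, and reads that match these may have been split between them. Gapdh-ps2, a copy with a row of its own, reached 0.241 to 1.67 FPKM.

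Pgk1 makes the first ATP of the pathway and is X-linked. It read 251, 244, 248 and 233 FPKM in male libraries 1 to 4, and 210, 225, 232 and 222 in female libraries 1 to 4. The values did not overlap, but the lowest male and the highest female library were 232.6 and 231.6 FPKM. The log2 difference was 0.14 ± 0.06 (95% interval 0.01 to 0.26, unadjusted p = 0.0357, limma adjusted p = 0.199). Eno1 read 447, 420, 411 and 396 FPKM in male and 358, 362, 452 and 394 in female libraries 1 to 4. The highest Eno1 value of all was thus in a female library, female 3 (log2 difference 0.10 ± 0.08, limma adjusted p = 0.518). Pkm read 193, 177, 182 and 197 FPKM in male and 175, 175, 193 and 191 in female libraries 1 to 4, with overlap (0.03 ± 0.06, limma adjusted p = 0.842).

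Lactate dehydrogenase is a tetramer of A and B subunits, of which the A-rich forms are typical of muscle and of glycolytic cells and the B-rich forms of heart. In these cultures Ldhb was the larger part, with 57.6 ± 3.38% of the summed FPKM (SD, n = 8), and Ldha held 42.4 ± 3.38%. Ldhb exceeded Ldha in 8 of 8 libraries. Ldhal6b, another listed gene of this family, had no row. Since Ldha was the member called between the sexes and Ldhb was not called, the 250 bases before the start of each are shown, from RefSeq on assembly GRCr8, 5′ to 3′ on the gene's strand. Capitals mark GCGTG and ACGTG (the core letters of hypoxia-inducible factor sites), CACGTG (the E-box of MYC family factors, which reads the same on both strands and so holds ACGTG on each) and TGACGTCA (the cyclic AMP response element). All were searched on both strands. Ldha lies at chr1:106507842-106508091 on the plus strand and Ldhb at chr4:177177409-177177658 on the minus strand.

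Ldha: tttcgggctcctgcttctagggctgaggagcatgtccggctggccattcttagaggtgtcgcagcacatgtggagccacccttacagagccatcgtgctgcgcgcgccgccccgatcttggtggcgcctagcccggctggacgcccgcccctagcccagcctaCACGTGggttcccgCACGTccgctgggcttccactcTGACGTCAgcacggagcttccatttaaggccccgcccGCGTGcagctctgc

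Ldhb: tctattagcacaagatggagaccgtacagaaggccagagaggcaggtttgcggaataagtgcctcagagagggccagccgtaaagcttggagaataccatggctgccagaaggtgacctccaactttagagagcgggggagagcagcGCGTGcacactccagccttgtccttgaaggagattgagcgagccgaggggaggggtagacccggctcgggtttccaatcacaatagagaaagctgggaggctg

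The Ldha window held ACGTG 3 times, 2 of them as both strands of the single CACGTG, besides 1 GCGTG and 1 TGACGTCA. The Ldhb window held 1 GCGTG and none of the others. Among 33469 such windows of RefSeq genes, 16.6% held ACGTG, 25.9% GCGTG, 36.7% either, 5.59% CACGTG and 1.59% TGACGTCA. Of the 10 members 9 had a window, 13 windows in all, and 8 of the 13 held either core. Slc2a1 held 1 ACGTG and 3 GCGTG, Gapdh 1 and 2, and Pkm and Hk2 neither. Pgk1 had no window. These are matches of letters, and binding was not measured.

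Ldha read 210, 208, 224 and 219 FPKM in male libraries 1 to 4 and 166, 178, 194 and 184 in female libraries 1 to 4. Every male library lay above every female one. The means were 216 ± 7.46 and 181 ± 11.9 FPKM (SD, n = 4 each), a ratio of 1.19. The log2 difference was 0.26 ± 0.06 (95% interval 0.12 to 0.40), with a limma adjusted p of 0.0390 over all tested genes. Ldhb, in contrast, read 293, 274, 257 and 244 FPKM in male and 272, 285, 271 and 248 in female libraries 1 to 4, with overlap (-0.01 ± 0.07, 95% interval -0.17 to 0.14, limma adjusted p = 0.935). The ratio of Ldha to Ldhb ran from 0.719 to 0.897 in male and from 0.608 to 0.742 in female libraries. The call of Ldha was lost when relative depth was a covariate (log2 difference 0.21, limma adjusted p = 0.0849), without a filter on low values (0.0566), with the replicate number as a block (0.0861) and without male 2, 3 or 4 or female 1, 2 or 4 (0.0870 to 0.121). It was kept without male 1 (0.0425), without female 3 (0.0211) and without both (0.0189). The male libraries, with more Ldha, also had the lower sums of microglial, differentiating oligodendrocyte and OPC markers given above. They had the higher levels of the 3 called neuronal markers, but the neuronal sums overlapped and only 4 of the 8 neuronal markers had a log2 difference above 0. The part of these cell types in the Ldha difference was not tested.

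The shares of isozymes were compared between the sexes for 6 families, each tested by exact permutation of the sex labels (two-sided, 70 assignments), which can reach no p below 0.0286. Ldha held 44.7 ± 2.66% of its family in male and 40.1 ± 2.35% in female libraries (SD, n = 4), a difference of 4.59 percentage points (exact p = 0.0571, 0.114 after Benjamini-Hochberg adjustment over the 6 families). Pfkp held 26.7 ± 2.87% against 22.7 ± 2.77% (exact p = 0.0571, adjusted 0.114). Aldoa held 78.9 ± 2.02% against 75.6 ± 1.25% (exact p = 0.0571, adjusted 0.114). Slc2a1 held 26.6 ± 3.47% against 22.6 ± 1.58% (exact p = 0.114, adjusted 0.171). Hk2 held 4.55 ± 0.440% against 5.26 ± 0.659% (exact p = 0.171, adjusted 0.206). Eno1 held 99.9 ± 0.0979% against 99.8 ± 0.115% (exact p = 0.286), of an enolase sum in which the part of Eno2 is not known. The shares of the sexes overlapped in all 6 families, and none passed the threshold. With a floor of 0.0286, a family that alone had shares fully apart could not have passed after adjustment over the 6. The lack of a pass therefore does not show that the shares were equal. Leaving out male 1 raised the Aldoa difference from 3.31 to 3.96 points, and the groups then no longer overlapped. The exact p was 0.0286, the smallest these 7 libraries can give, and was not adjusted over the 6 families.

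**Figure D3:**
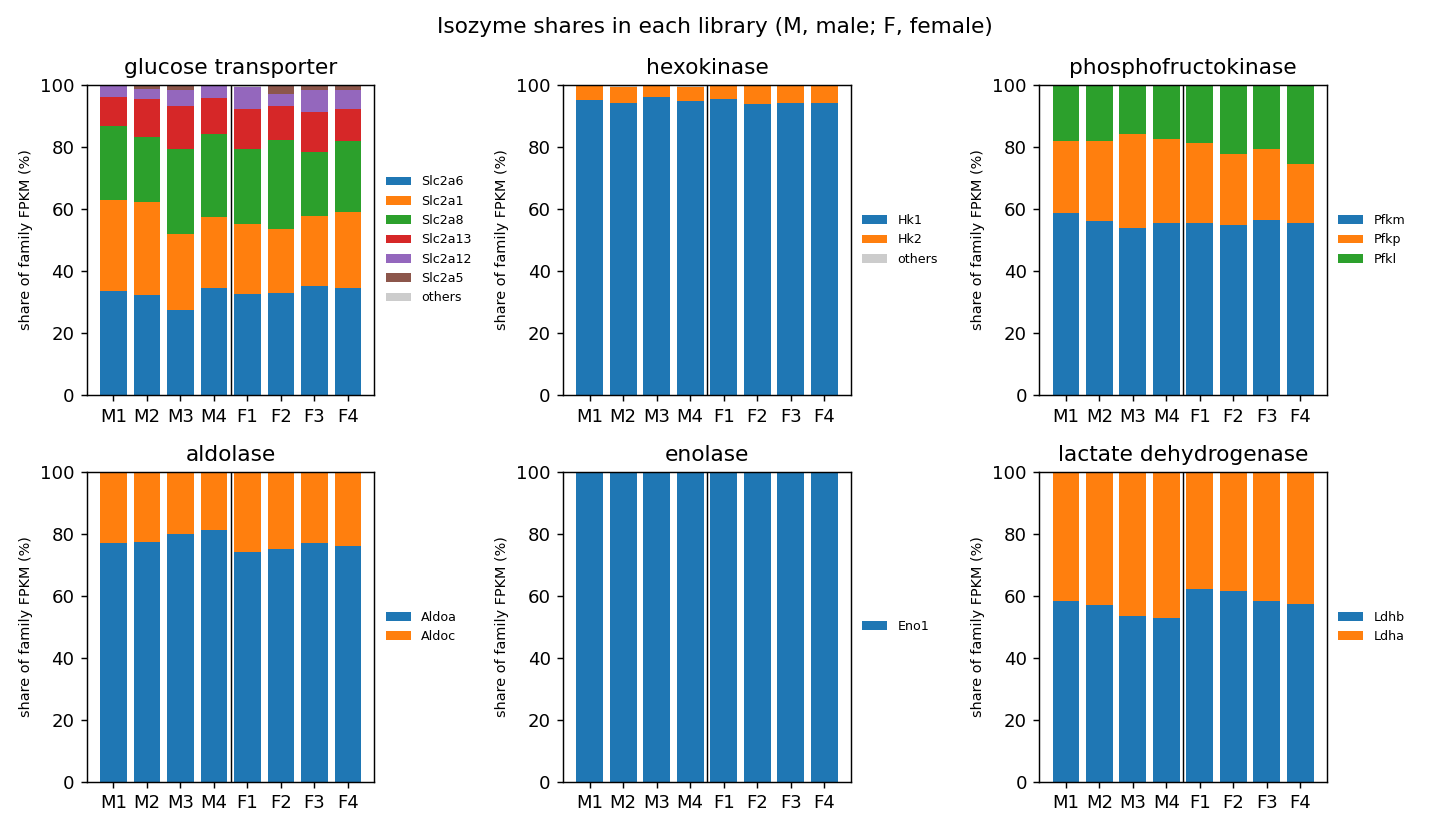
Share of each isozyme in the summed FPKM of its family, in percent, in each of the 8 libraries, as stacked bars, male (M) to the left of the line and female (F) to the right. Hexokinase is almost all Hk1 (94.8% on average), phosphofructokinase is led by Pfkm (55.8%), and lactate dehydrogenase by Ldhb (57.6%).

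Between the sexes, 1 of the 10 genes was called, Ldha, with the male level higher, and none with the female level higher. Over all 11263 tested genes 6.04% were called by the same limma test, 3.14% with the male and 2.89% with the female level higher. At an unadjusted p under 0.05 there were 3 members (Ldha, Pfkp and Pgk1), all with the male level higher, where 21.2% of all tested genes passed. The same 3 members had values that did not overlap, against 14.0% of all tested genes, 7.26% with the male and 6.77% with the female level higher. The log2 difference was above 0 in 9 of 10 members, Hk2 being the exception, against 49.3% of all tested genes. Its median was 0.083 over the members and -0.0038 over all tested genes. The direction of Hk1, Gapdh and Pkm turned under some settings that are given below, as their differences were close to 0. The mean z score of the 10 genes was highest in male 1 (0.758) among male and in female 3 (0.0855) among female libraries. These were also the deepest libraries (relative depth 1 and 0.981). Among the female libraries the scores rose in the order of depth. Among the male ones they did not, with male 3 (relative depth 0.769) at 0.00446 and male 4 (0.557) at 0.447. With relative depth as a covariate in the fit the median log2 difference of the members was 0.032.

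The rest of the pathway was described from lists of connected genes. Of 8 isozymes outside the members that were tested, 0 were called by limma and 1 (Aldoc) had an unadjusted p under 0.05. Of the 8 other glycolysis enzymes 6 were tested, with 0 called and 1 at an unadjusted p under 0.05. That gene was Pgam1, the phosphoglycerate mutase of most tissues, with 143 ± 6.91 FPKM in male and 126 ± 7.77 in female libraries, no overlap, and a log2 difference of 0.19 ± 0.07 (limma adjusted p = 0.135). Gpi, which had 180 ± 11.9 and 183 ± 11.2 FPKM, had an adjusted p of 0.902.

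Among genes that handle pyruvate and lactate, 15 were tested, and limma called 2 with the male and 1 with the female level higher. Over all tested genes the shares were 3.14% and 2.89%. Pdk2, a kinase that switches off pyruvate dehydrogenase, read 12.3, 9.55, 10.1 and 10.8 FPKM in male libraries 1 to 4 and 17.4, 18.5, 15.7 and 16.6 in female libraries 1 to 4. Its female mean was 1.60 times the male mean (log2 difference -0.63 ± 0.10, limma adjusted p = 0.00661). Pdp1, a phosphatase that switches the same complex on, went the other way, with 13.6 ± 0.412 FPKM in male and 10.4 ± 0.669 in female libraries (0.36 ± 0.09, limma adjusted p = 0.0489). Mpc2, a subunit of the carrier that takes pyruvate into mitochondria, had 67.0 ± 3.00 against 53.3 ± 5.06 FPKM (0.33 ± 0.08, limma adjusted p = 0.0340), and its partner Mpc1 was not called (0.17, limma adjusted p = 0.177). The lactate transporter Slc16a1 ran from 27.1 to 35.7 FPKM with overlap (limma adjusted p = 0.467).

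Of 17 tested regulators of glycolysis, limma called 0 with the male and 3 with the female level higher. The shares called over all tested genes were 3.14% and 2.89%. The median log2 difference of the regulators was -0.10, against -0.0038 over all tested genes. Txnip, whose product promotes the removal of glucose transporters from the cell surface, read 9.76, 8.69, 6.86 and 5.99 FPKM in male libraries 1 to 4 and 14.5, 12.3, 13.3 and 16.1 in female libraries 1 to 4. Every female library was above every male one, by 1.80 times in the mean (-0.78 ± 0.15, limma adjusted p = 0.0124). Its relative Arrdc4 had 4.44 ± 0.993 FPKM in male and 7.61 ± 1.21 in female libraries (-0.67 ± 0.17, limma adjusted p = 0.0399). The third was Myc, a transcription factor that drives many glycolysis genes (-0.47 ± 0.10, limma adjusted p = 0.0209). Hif1a, the oxygen-regulated subunit of hypoxia-inducible factor 1, was not called (limma adjusted p = 0.581), nor were its partner Arnt (-0.31, 0.0961) and the oxygen sensor Egln1 (0.30, 0.0779).

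Of 11 tested targets of hypoxia-inducible factor 1 outside glycolysis, 0 were called with the male and 3 with the female level higher. Over all tested genes the shares were 3.14% and 2.89%. The median log2 difference of these targets was -0.19. Ddit4, an inhibitor of the growth kinase complex mTORC1, read 48.0, 39.1, 36.2 and 46.0 FPKM in male libraries 1 to 4 and 62.0, 70.6, 57.7 and 69.3 in female libraries 1 to 4 (-0.61 ± 0.10, limma adjusted p = 0.00759). Mxi1, an antagonist of MYC, was called at -0.41 ± 0.09 (limma adjusted p = 0.0276), and the histone demethylase Kdm3a at -0.36 ± 0.08 (0.0327). Vegfa and Bnip3, commonly used markers of low oxygen, were not called (limma adjusted p = 0.601 and 0.991). The 3 called genes of this list had the female level higher, and Ldha, itself a known target, the male level. Of the 11 targets, 4 had a log2 difference above 0. These directions were not compared by a test.

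Of 2 tested genes of the glycerol phosphate shuttle, a side branch of glycolysis, limma called 0 and 0 had an unadjusted p under 0.05. The lists of pyruvate and lactate handling, regulators and hypoxia-inducible factor 1 targets held 9 called genes together. Of these 9, Pdk2, Txnip and Ddit4 kept their call under each of 17 alternative settings, with a highest adjusted p of 0.0292, 0.0474 and 0.0315. The other 6 lost it under several, among them the omission of single libraries. Pdp1 and Kdm3a lost it with any 1 of the 8 libraries left out (highest adjusted p on omission 0.136 and 0.0970), Arrdc4 with any but female 3 left out (0.108), Mpc2 with any but male 1 or female 2 (0.0995), Mxi1 with any but male 1 or female 3 (0.0840), and Myc without male 2, 3 or 4 or female 1 or 4 (0.0676).

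**Figure D4:**
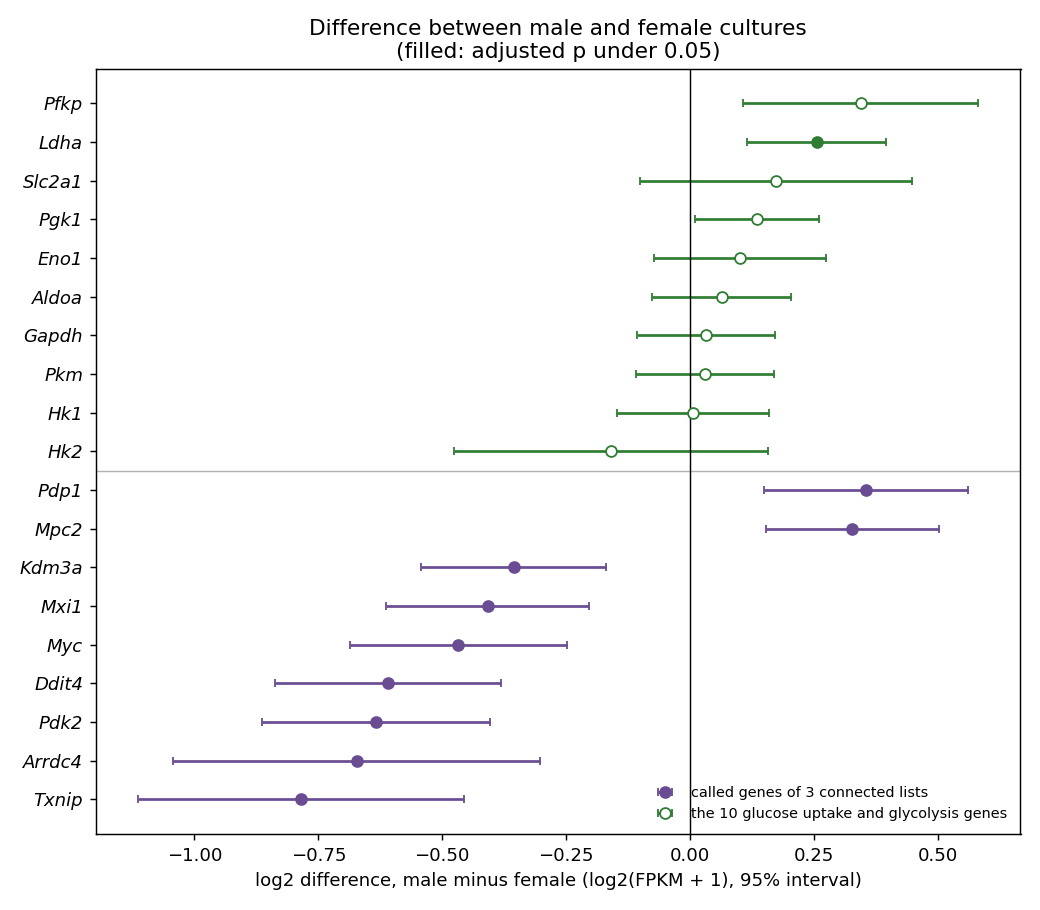
Log2 difference (male minus female, from log2(FPKM + 1) values) with its 95% interval for the 10 glucose uptake and glycolysis genes (upper block) and for the 9 called genes of these 3 lists (lower block, shown because they were called). Filled points passed the adjusted threshold. The intervals of Pfkp (0.11 to 0.58), Ldha (0.12 to 0.40) and Pgk1 (0.01 to 0.26) lie above 0, and of the upper block only Ldha is filled.

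The tested genes outside these lists whose log2 levels followed the mean z score of the members most closely over the 8 libraries were Ampd2 (Pearson r = 0.977), Noc4l (0.972), Mrps15 (0.969), Ddx39b (0.965) and Fam19a5 (0.957). They were picked as the highest of all tested genes, over libraries that share depth and sex, so the r values are a description. None of the 5 was called between the sexes, with limma adjusted p from 0.129 to 0.342. Among the members themselves, r was highest for Ldha (0.824), Pgk1 (0.821) and Eno1 (0.798), and lowest for Hk1 (-0.143) and Hk2 (-0.313). Each member is itself part of the score, so its r is partly built in, and these values were not tested.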

How the data were processed

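RNA of 8 libraries of cultured rat OPCs (4 male, 4 female) was sequenced from strand-specific Agilent SureSelect libraries on a MiSeq, per the labels' protocols. The authors deposited FPKM per gene and library, per the file headers. Per the submitters' processing notes, which give no versions, Trimmomatic and FastQC were used. Not given in the sources used here are the aligner, the quantifier, the build, the annotation and whether counting used strand. Because FPKM is scaled to library size, more of an abundant gene lowers all others, and without counts no counting interval is given.

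Sex and number came from the titles. Values were taken as log2(FPKM + 1), and 11263 of 32883 genes, those averaging 1 FPKM or more, were tested with limma 3.58.1 in R 4.3.3 (mean-variance trend, robust moderation, sex only, no replicate block), adjusted by Benjamini-Hochberg over all of them, at a threshold of 0.05. Differences are male minus female on that scale, which understates low genes. The script was tested on simulated data. Isozyme shares were compared by exact permutation of the libraries.

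Members, lists and tests were chosen with earlier results of these data known. Named are all members, isozymes of at least 1 FPKM, the called genes of each list or else up to 4 with the smallest p, and the 5 genes most like the members' mean z score. Hif1a, Arnt, Egln1, Vegfa, Bnip3, Slc16a1 and Mpc1, genes named for being listed at 0, and ratios of isozymes, were chosen after their values were seen. Alternatives were other pseudocounts, filters and normalizations, the replicate number as a block, relative depth as a covariate, and libraries left out. Some genes that this rule takes, and the lists that hold them, are not reported here. Promoter windows are from RefSeq on GRCr8.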

Additional observations from a re-analysis of the deposited data

How the results depend on the processing

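The number of genes called over all tested genes, 680, was 397 with the replicate number as a block, 367 with relative depth as a covariate, and 296 to 808 when single libraries were left out. The count of members called with the male level higher, 1, was 0 without a filter on low values, with the replicate block and with the depth covariate, and 0 to 1 with a library left out, fits that hold fewer samples. The count with the female level higher was 0 throughout, 0 to 0 with a library left out. The members' median of 0.083 was 0.052 to 0.11 with a library left out, 0.032 with the depth covariate, 0.023 after quantile normalization and 0.10 with a filter of 5 FPKM, which drops Hk2. Of the members 7 kept their direction under all alternatives. Hk1, not called in any, was at -0.0308 after quantile normalization, at -0.0249, -0.0181 and -0.0079 without male 4, female 3 and female 4 (-0.0249 to 0.0442 with a library left out), and at -0.0158 without both male 1 and female 3. Gapdh was at -0.0049 with the depth covariate and -0.0065 without male 1 (-0.0065 to 0.0614 with a library left out), and Pkm at -0.0197 after quantile normalization and -0.0113 with the depth covariate. The causes were not tested. With a library left out, the difference in share was 2.55 to 3.96 points for Aldoa, 0.0326 to 0.134 for Eno1 and -1.02 to -0.537 for Hk2. It was 3.74 to 5.56 for Ldha, 2.82 to 5.11 for Pfkp and 2.88 to 5.18 for Slc2a1. Only for Aldoa without male 1 (3.96 points) was the exact p of a share under 0.05, before adjustment over the families. No source says whether the replicate numbers pair the samples, and the correlations that follow cannot settle it. Deviations of same-numbered male and female libraries correlated at -0.0851, 0.0767, -0.0645 and 0.0357 over 11263 genes, while the highest of all pairs was male 1 with female 3, at 0.242. With the numbers paired, exact p of the shares was 0.125 for Ldha and Aldoa, the smallest that sign flips of 4 pairs can give. It was 0.25 for Pfkp, Slc2a1 and Hk2, and 0.375 for Eno1. This paired test could thus not reach 0.05 for any family. Without male 1 and female 3, 882 genes were called. Absolute depth is unknown, so the counting error of low values such as those of Hk2 could not be given.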

Other observations

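In the order of RefSeq genes on GRCr8, Tpi1 and Eno2 lie in a run of 6 consecutive genes (Grcc10, Atn1, Eno2, Lrrc23, Spsb2 and Tpi1) that were each listed at 0 in at least 5 of the 8 libraries. Grcc10, Eno2 and Lrrc23 were at 0 in all 8, Atn1 reached 0.0593 FPKM, Tpi1 0.203 and Spsb2 1.04. Several nearby genes on both sides had higher values in every library, with Phb2 at 178 to 212 FPKM and Emg1 at 30.2 to 37.9 on one side, and Usp5 at 51.4 to 65.2 and Cdca3 at 76.6 to 139 on the other. Ptpn6, between Phb2 and Grcc10, was at 0.430 to 1.70 FPKM, and Gnb3, just past Cdca3, was at 0 in 4 libraries and reached 0.520 FPKM. The run was found after the values were seen, and why these genes are listed at 0 was not tested. Slc2a3, also listed at 0, has Foxj2 (6.02 to 7.86 FPKM) as the next gene on one side and Nanog, at 0, on the other, so its neighbours do not share 1 pattern.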
